A study of Mus musculus with 41 samples.

Results

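Transcripts of 5 genes whose expression marks pluripotent mouse cells were followed as embryonic stem cells left the naive state: Dppa2, Dppa3, Dppa4 and Dppa5a of the developmental pluripotency associated group, and the F-box gene Fbxo15. They were taken by name from a table of 55487 genes and described in all 12 combinations of cell line and time. The cells were E14 mouse embryonic stem cells, either with intact Esrrb (WT, 15 libraries) or from 2 lines with genetic depletion of this nuclear receptor of the naive network (KO2, 15 libraries, and KO3, 11 libraries). Cells in 2iL medium, which contains the GSK3 inhibitor CHIR99021, the MEK inhibitor PD0325901 and LIF, gave 3 libraries per line. The other cells spent 1 day in N2B27 on fibronectin and then 1, 3 or 5 days in AloXR medium (activin A, the tankyrase inhibitor XAV and BMS439) on the way to the formative state. These groups held 4 libraries each, but KO3 had only 2 at each of days 3 and 5. N2B27 was the base medium of every group. Each depleted line is a single line, and the labels do not say how Esrrb was disrupted or whether a group's libraries came from separate cultures.

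Dppa2 and Dppa4 encode SAP-domain proteins that bind chromatin together, keep CpG-rich developmental promoters free of DNA methylation and act upstream of the 2-cell-like programme. Dppa3, also called Stella, is a maternal and germ cell factor that protects DNA methylation in the zygote and binds the methylation cofactor Uhrf1. Dppa5a encodes a KH-domain RNA-binding protein of embryonic stem and germ cells. Fbxo15 encodes an F-box protein, the part of an SCF ubiquitin ligase that picks the substrate, and its locus served as the reporter of the reprogramming screen in which all 5 genes were candidate factors.

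In the GRCm38 annotation, Dppa4 (ENSMUSG00000058550, chromosome 16, 48283733 to 48294237, plus strand) lies just before Dppa2 (ENSMUSG00000072419, chromosome 16, 48303908 to 48319723, plus strand), with 9671 bp between them. Dppa3 (ENSMUSG00000046323) occupies chromosome 6, 122626410 to 122630272, on the plus strand. Dppa5a (ENSMUSG00000060461) occupies chromosome 9, 78367052 to 78368177 on the minus strand. Dppa4 and Fbxo15 had reads in 41 of 41 libraries, Dppa2 and Dppa5a in 40 and Dppa3 in 35. All 5 passed the filter of at least 1 CPM (reads of the gene per 1000000 assigned reads) in at least 3 libraries.

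Processed copies of the Dppa genes are spread over the genome, and the coding ends of Dppa4 and Dppa5a are shown beside their most expressed processed pseudogenes because reads from such copies are hard to assign. Each stretch is the last 120 coding bases, read 5′ to 3′ from the annotated transcripts, and capitals mark the bases that differ within a pair.
Dppa4: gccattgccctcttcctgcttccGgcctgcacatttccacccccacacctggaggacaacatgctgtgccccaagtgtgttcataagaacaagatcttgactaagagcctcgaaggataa
Gm14058: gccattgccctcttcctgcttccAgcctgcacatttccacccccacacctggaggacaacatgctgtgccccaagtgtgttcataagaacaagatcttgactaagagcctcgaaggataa
Dppa5a: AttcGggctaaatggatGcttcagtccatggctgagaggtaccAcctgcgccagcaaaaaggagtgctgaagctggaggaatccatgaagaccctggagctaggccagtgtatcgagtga
Gm6083: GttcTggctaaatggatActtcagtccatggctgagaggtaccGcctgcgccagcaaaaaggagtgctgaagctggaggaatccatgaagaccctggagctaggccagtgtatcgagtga
Gm14058, on chromosome 2, matched Dppa4 at 98.9% of 735 aligned bases, with 1 difference in the stretch shown. Gm6083, on chromosome 5, matched Dppa5a at 96.9% of 357 aligned bases, with 4 differences in its stretch.

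The copies held few reads beside Dppa2, Dppa3 and Dppa4. The 8 copies of Dppa2 summed to at most 0.29 CPM in any library, the 2 of Dppa3 to at most 0.45 CPM and the 2 of Dppa4 to at most 7.5 CPM. Gm14058 moved with Dppa4 in WT, at means of 1.59, 4.19, 0.706 and 0.111 CPM in 2iL and at days 1, 3 and 5. The 11 copies of Dppa5a summed to 14.49 to 40.81 CPM, most of it from the protein-coding gene Pigp, a subunit of the enzyme that starts GPI anchor synthesis, which shares 417 bases with Dppa5a at 95.9% identity. In WT, Pigp stood at 18.3 CPM in 2iL and 37.0 CPM at day 5, the opposite course to that of Dppa5a. No copy of Fbxo15 was found among the annotated transcripts.

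Libraries held 3424064 to 5736053 assigned reads, and a count of 0 allows up to 3 reads, or 0.523 to 0.876 CPM depending on the library. Esrrb averaged 375 CPM in WT in 2iL, 54.6 CPM in KO2 and 135 CPM in KO3, a fall of the 2 lines' average by 2.11 ± 0.27 on the log2 scale (limma, adjusted p = 4.73e-08). At day 1 Esrrb stood at 15.1 CPM in WT, 3.46 CPM in KO2 and 33.8 CPM in KO3, so that KO3 did not lie below WT. At day 3 it stood at 1.60, 1.98 and 5.52 CPM and was called higher in the lines labelled as depleted (0.74 ± 0.25, adjusted p = 0.0265), against that label. Since the disrupted part of the gene is not given in the sources used here, these 3′ tags check the label only in part. In 2iL the library numbered 3 stood apart in every line: its Dnmt3b level was 107 to 121 CPM, whereas the remaining 6 libraries had 39.7 to 59.9 CPM. Naive markers (10 genes) summed to 3354 to 3766 CPM in WT in 2iL and 150.0 to 187 CPM at day 3, with none at 0.

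In WT cells the members changed in different orders. Dppa2 and Dppa4 rose between 2iL and day 1, whereas Dppa3, Dppa5a and Fbxo15 fell, and by day 3 every member had fallen below its day 1 level. Calls required a limma p under 0.05 after Benjamini-Hochberg adjustment over all 16967 genes tested, together with a 1.5-fold change. Changes are on the log2(CPM + 1) scale, which understates those of low genes. From 2iL to day 1, 2 of 5 members were called higher (17.8% of all genes tested were) and 3 of 5 lower (18.7% of all genes). From day 1 to day 3, 5 of 5 were called lower, against 8.91% of all genes. From day 3 to day 5, 2 of 5 were called lower (3.97% of all genes) and 1 of 5, Fbxo15, higher (9.96% of all genes). The p-values measure the spread between these libraries, which may be technical, and in bulk RNA fewer expressing cells cannot be told apart from less RNA per cell.

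**Figure D1:**
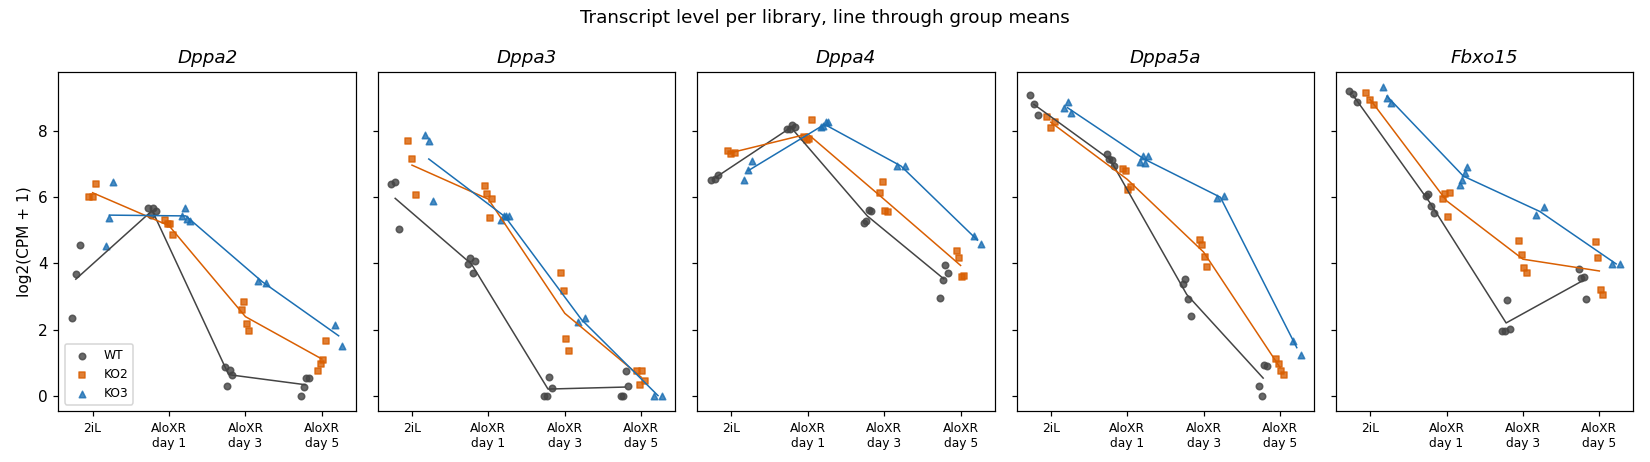
Level of each member in every library, as log2(CPM + 1) on the vertical axis, in 2iL and at AloXR days 1, 3 and 5, with WT as grey circles, KO2 as orange squares and KO3 as blue triangles. Lines join group means: Dppa2 and Dppa4 of WT peak at day 1, the other members of WT are highest in 2iL, Fbxo15 of WT is higher at day 5 than at day 3, and at day 3 every mean of a depleted line lies above that of WT.

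Dppa2 was higher in the depleted lines than in WT in 2iL. WT libraries in 2iL held 4.10, 11.7 and 22.5 CPM of Dppa2, KO2 libraries 63.4, 62.9 and 84.3 CPM, and KO3 libraries 22.02, 40.9 and 88.0 CPM. All KO2 libraries and 2 of 3 KO3 libraries exceeded every WT library. Averaged over the 2 depleted lines with equal weight, Dppa2 was higher than in WT by 2.28 ± 0.30 (log2, standard error, adjusted p = 1.42e-07), and in each depleted line alone it was called as well (2.62 ± 0.35 in KO2 and 1.94 ± 0.35 in KO3). It was highest in the library numbered 3 of each line, and the groups without these libraries did not overlap.

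At day 1 the depleted lines no longer lay above WT, and 7 of 8 depleted libraries lay below every WT library. Dppa2 held 50.2, 43.0, 50.5 and 46.9 CPM in WT, 39.2, 35.4, 35.6 and 28.1 CPM in KO2, and 42.2, 50.7, 39.4 and 38.2 CPM in KO3. WT had risen by 2.08 ± 0.32 from 2iL (adjusted p = 1.06e-06, 4 of 4 libraries), while the depleted lines stood at -0.51 ± 0.23 and were not called (adjusted p = 0.057). That fall was called by edgeR (-0.64, adjusted p = 0.0128) and DESeq2 (-0.62, adjusted p = 0.0162), and by limma in KO2 alone (-1.0 ± 0.32, adjusted p = 0.0127), where KO3 stood at -0.02 ± 0.32 (adjusted p = 0.963). The difference between these changes was -2.59 ± 0.40 (adjusted p = 8.8e-06), the only member called in that test (1 of 5 called lower, against 4.37% of all genes), and at day 1 the depleted lines did not differ detectably from WT (-0.31 ± 0.26, adjusted p = 0.442).

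At day 3 Dppa2 was nearly gone from WT and was still measured in both depleted lines. WT libraries held 0.81, 0.22, 0.71 and 0.54 CPM, KO2 libraries 5.03, 6.06, 3.54 and 2.91 CPM, and KO3 libraries 10.1 and 9.73 CPM. The groups did not overlap, and the difference from WT was 2.28 ± 0.28 (adjusted p = 3.03e-08). Summed over libraries, 11 reads stood behind WT, and the ratio of summed CPM to WT was 7.46 in KO2 (95% exact interval 3.95 to 15.6, counting error only) and 17.4 in KO3 (9.25 to 36.0). At day 5 WT held 0, 0.20, 0.45 and 0.44 CPM, KO2 0.68, 0.95, 1.11 and 2.13 CPM, while KO3 held 3.38 and 1.81 CPM. The day 5 difference was 1.13 ± 0.28 (adjusted p = 0.00175) from 5 reads in WT, and KO2 alone did not pass (0.78 ± 0.30, adjusted p = 0.0524).

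Dppa4, the chromatin partner of Dppa2, was still measured in every library at day 5. In 2iL WT held 90.6, 92.1 and 102 CPM, KO2 168, 158 and 163 CPM, with KO3 at 90.5, 112 and 135 CPM. KO2 lay above every WT library and KO3 overlapped WT, and the average difference of 0.50 ± 0.18 (adjusted p = 0.0361) was under 1.5-fold and not called, although KO2 alone was (0.77 ± 0.20, adjusted p = 0.00436). At day 1 every line was at its highest: 269, 269.7, 288 and 280.1 CPM in WT, 225, 214, 219 and 322 CPM in KO2, and 278, 288, 307 and 308 CPM in KO3. These groups overlapped and did not differ detectably (-0.05 ± 0.15, adjusted p = 0.860).

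By day 3 Dppa4 had fallen to 36.7, 38.2, 48.6 and 46.9 CPM in WT and to 69.2, 87.3, 47.1 and 46.5 CPM in KO2, while KO3 still held 122 and 123 CPM. The difference from WT was 1.01 ± 0.17 (adjusted p = 9.25e-06). Only 2 of 4 KO2 libraries exceeded all of WT, and KO2 alone was under 1.5-fold (0.50 ± 0.18, adjusted p = 0.0366), whereas both KO3 libraries did (1.51 ± 0.22, adjusted p = 1.08e-06). At day 5 WT held 6.76, 10.3, 14.6 and 12.2 CPM, KO2 19.8, 16.8, 11.1 and 11.3 CPM, while KO3 held 27.3 and 23.1 CPM. Here the difference was 0.79 ± 0.17 (adjusted p = 0.000285), with KO2 alone at 0.41 ± 0.18 (adjusted p = 0.0908).

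Because the products of the pair act together, Dppa2 was also set against Dppa4 within each library. This largely removes the library's scaling where levels are well above the added 1 CPM, but not where Dppa2 is near 0. The difference log2(Dppa2 CPM + 1) minus log2(Dppa4 CPM + 1) averaged -3.06 ± 1.03 for WT in 2iL (SD, n = 3 per line), against -1.21 ± 0.24 for KO2 and -1.35 ± 0.69 for KO3. At day 1 the means were -2.52, -2.78 and -2.77, and at day 3 WT stood at -4.80 ± 0.29 (n = 4), KO2 at -3.55 ± 0.11 (n = 4) and KO3 at -3.50 ± 0.05 (n = 2). At day 5 they stood at -3.20, -2.83 and -2.90. Depleted libraries exceeded WT by 1.78 in 2iL (exact two-sided permutation p = 0.0119, the smallest that 84 splits allow, 0.0238 adjusted over the 4 times) and by 1.27 at day 3 (exact p = 0.00476, the smallest of 210 splits, adjusted 0.019). At day 1 (-0.26, exact p = 0.182) and day 5 (0.35, exact p = 0.295) no difference was detectable. This test treats all libraries of KO2 and KO3 as interchangeable, although each depleted line is a single line. Its p-values therefore describe these libraries and not Esrrb depletion in general. The day 3 result rests on low Dppa2 values: with a pseudocount of 5 CPM it was 0.18 (adjusted exact p = 0.291).

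**Figure D2:**
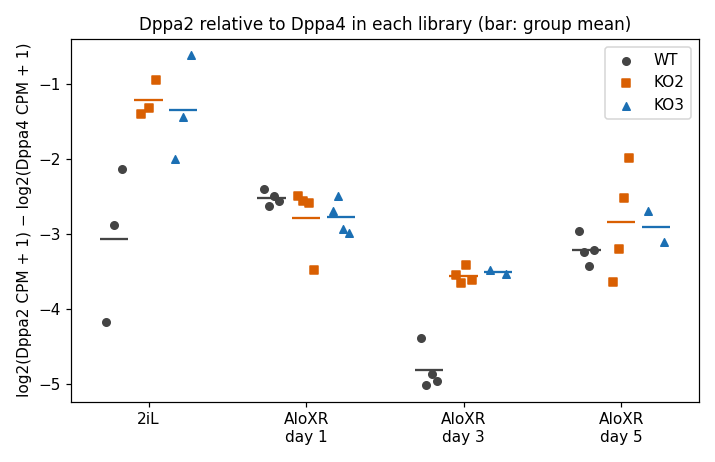
Dppa2 relative to Dppa4 in each library, as the difference of log2(CPM + 1) on the vertical axis, by time and line, with horizontal bars at group means. In 2iL and at day 3 the means of KO2 and KO3 lie above WT, by 1.78 and 1.27 over all depleted libraries, and at days 1 and 5 the groups overlap.

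Dppa3, the germ cell and zygote factor, was the only member called higher in the depleted lines at day 1. In 2iL WT libraries held 83.0, 88.0 and 31.97 CPM, KO2 206, 143 and 65.9 CPM, with KO3 at 235, 208 and 58.4 CPM. The lowest value of every line was its library numbered 3, and both depleted lines overlapped WT through it. Among the libraries numbered 1 and 2, and again among those numbered 3, both depleted lines lay above WT. The difference of 1.10 ± 0.41 was called at the edge of the threshold (adjusted p = 0.0499). It was 1.18 without the libraries numbered 3 (adjusted p = 0.0131), and a fit with a term for those libraries, added after seeing the data, gave 1.10 with an adjusted p of 0.00335. Without that term, the call was lost in 6 of the 9 fits that left out a library, among them those without WT library 1 (1.31, adjusted p = 0.0568) and without WT library 3 (0.63, adjusted p = 0.330), and in the fits without library 1 or 2 of KO2 or of KO3 (0.92 to 1.05, adjusted p from 0.0824 to 0.112).

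At day 1 the lines separated fully. Dppa3 held 14.7, 16.8, 11.97 and 15.99 CPM in WT, 80.6, 67.8, 40.3 and 61.1 CPM in KO2, and 39.2, 42.6, 42.4 and 42.0 CPM in KO3. All 8 depleted libraries exceeded every WT library, by 1.70 ± 0.35 on the log2 scale (adjusted p = 0.000526). At this time 1 of 5 members was thus called, against 6.31% of all genes called higher.

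At day 3 WT held 0, 0, 0.47 and 0.18 CPM of Dppa3, 3 reads in all 4 libraries, KO2 12.1, 8.07, 2.29 and 1.55 CPM, while KO3 held 3.70 and 4.14 CPM. Every WT library was below its detection limit and every depleted library above WT (2.19 ± 0.38, adjusted p = 4.26e-05). The ratio of summed CPM to WT was 36.5 in KO2 (95% exact interval 12.1 to 179.8) and 25.03 in KO3 (7.89 to 127). KO2 libraries 1 and 2 held several times the CPM of libraries 3 and 4. At day 5 WT held 0, 0, 0.68 and 0.22 CPM, KO2 0.68, 0.24, 0.67 and 0.35 CPM, with KO3 at 0 CPM in both libraries, so that no difference was detectable at this depth.

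Dppa5a, the KH-domain gene, was called lower at every step, in WT and in the depleted lines. In 2iL it stood at 549, 455 and 362 CPM in WT, 348, 272 and 312 CPM in KO2, and 414, 472 and 376 CPM in KO3. KO2 lay below every WT library and KO3 among them, and the average difference was not called (-0.32 ± 0.20, adjusted p = 0.274). At day 1 the libraries held 157, 141, 139 and 122 CPM in WT, 114, 109.7, 73.8 and 79.3 CPM in KO2, and 135, 153, 131 and 153 CPM in KO3. KO2 again lay below all of WT (-0.59 ± 0.20, adjusted p = 0.0316), KO3 did not (0.03 ± 0.20, adjusted p = 0.941), and the average was not called (-0.28 ± 0.17, adjusted p = 0.275).

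The order turned over at day 3, when Dppa5a held 9.33, 10.5, 6.64 and 4.34 CPM in WT, 25.4, 22.7, 17.5 and 13.8 CPM in KO2, and 61.7 and 64.7 CPM in KO3. The 3 lines did not overlap, and the difference from WT was 2.11 ± 0.19 (adjusted p = 4.97e-12, 6 of 6 libraries). At day 5 little was left: 0.22, 0, 0.91 and 0.87 CPM in WT, 1.14, 0.95, 0.67 and 0.53 CPM in KO2, and 2.17 and 1.36 CPM in KO3. The day 5 difference was called (0.62 ± 0.19, adjusted p = 0.00842) from 9 WT reads, but not in KO2 alone (0.32 ± 0.20, adjusted p = 0.254), by edgeR (1.30, adjusted p = 0.0903) or by DESeq2 (1.36, adjusted p = 0.0535). It was also lost without KO2 library 1 (0.58), KO3 library 1 (0.51), WT library 1 (0.54) or WT library 2 (0.44).

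Fbxo15 (ENSMUSG00000034391, chromosome 18, 84934782 to 84981473, plus strand), the substrate receptor of an SCF ligase, did not differ detectably between the lines in 2iL. WT held 601, 557 and 470.1 CPM, KO2 567, 496 and 441 CPM, while KO3 held 644, 515 and 458 CPM (-0.07 ± 0.27, adjusted p = 0.904). At day 1 it held 65.3, 67.1, 52.2 and 44.8 CPM in WT, 61.5, 67.1, 41.7 and 68.4 CPM in KO2, and 82.5, 90.3, 106 and 121 CPM in KO3. KO2 overlapped WT and KO3 lay above it (0.80 ± 0.27, adjusted p = 0.0281), and the average was not called (0.42 ± 0.23, adjusted p = 0.210).

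At day 3 Fbxo15 stood at 2.84, 2.84, 6.40 and 3.08 CPM in WT, 24.4, 18.2, 13.6 and 12.2 CPM in KO2, and 42.8 and 50.9 CPM in KO3. The lines did not overlap, and the difference from WT was 2.65 ± 0.25 (adjusted p = 5.91e-10). This was the largest day 3 difference among the members on the log2(CPM + 1) scale, which understates those of low genes. Summed CPM of Fbxo15 reached 16.8 for KO2 and 46.5 for KO3, against 3.69 for WT. As ratios to WT these were smaller than those of Dppa3 (36.5 for KO2, 25.03 for KO3) and Dppa2 (7.46 and 17.4). WT then rose by 1.28 ± 0.27 to day 5 (adjusted p = 0.000731, 4 of 4 libraries), to 13.3, 10.7, 11.1 and 6.55 CPM. The depleted lines averaged a fall by 0.97 ± 0.23 (adjusted p = 0.00941), which KO3 carried. KO3 stood at 14.98 and 14.7 CPM at day 5 (-1.59 ± 0.38, adjusted p = 0.0254), whereas KO2, at 24.4, 17.03, 8.24 and 7.26 CPM, was not called (-0.36 ± 0.27, adjusted p = 0.504). The averaged fall was not called without KO3 day 3 library 2 (-0.91, adjusted p = 0.0671) or with only the groups compared in the fit (adjusted p = 0.0676), and at day 5 the lines overlapped (0.40 ± 0.25, adjusted p = 0.225). Fbxo15 encloses the mitochondrial import gene Timm21 on the other strand, which held 0.863, 22.4, 22.8 and 20.1 CPM in WT over the 4 times. Whether reads were assigned by strand is not given in the sources used here, so reads of overlapping parts cannot be told apart.

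**Figure D3:**
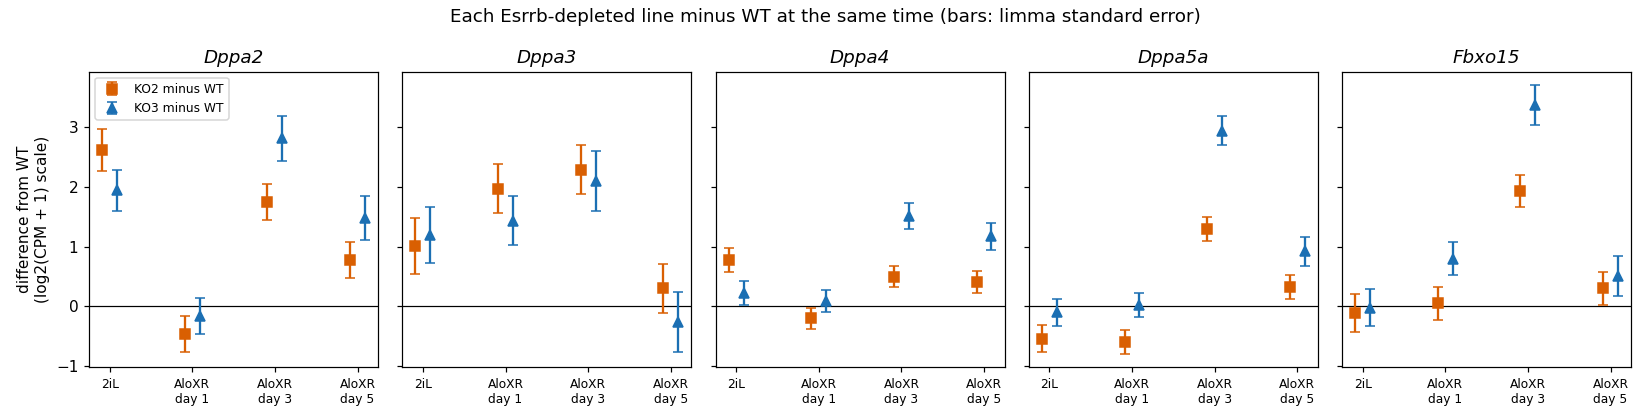
Difference of KO2 (orange squares) and KO3 (blue triangles) from WT at the same time, on the log2(CPM + 1) scale, with bars for the limma standard error. All 10 day 3 points lie above 0, from 0.50 for Dppa4 in KO2 to 3.37 for Fbxo15 in KO3, whereas at day 1 only Dppa3 is above 0 by more than 1 in both lines.

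Set against all genes, the members were called higher in the depleted lines most often at day 3. In 2iL 2 of 5 members were called higher (Dppa2 and Dppa3), against 8.11% of 16967 genes, and at day 3 5 of 5 against 10.8%. At day 5 it was 3 of 5 (Dppa2, Dppa4 and Dppa5a) against 8.89%. No member was called lower at any of the 4 times, where 7.6%, 5.5%, 6.49% and 11.7% of all genes were. Day 3 is also the time at which Esrrb itself was called higher in the lines labelled as depleted. The median difference of the 5 members was 0.50 in 2iL, -0.05 at day 1, 2.19 at day 3 and 0.62 at day 5, and that of all genes lay between 0.00 and 0.04. At day 3, 1830 genes were called higher and 1101 lower, and 1418 and 1381 after quantile normalization, which left all 5 members called. With KO2 alone, 4 members were called at day 3 and none at day 5.

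The same steps were read in the depleted lines, as the average of KO2 and KO3, without a test of each later step against WT. From 2iL to day 1, 1 of 5 members was called higher (Dppa4, 0.98 ± 0.14; 14.9% of all genes) and 3 of 5 lower (17.4% of all genes). From day 1 to day 3 all 5 fell (4.98% of all genes were called lower), by 1.42 ± 0.21 for Fbxo15 to 3.28 ± 0.32 for Dppa3, where the changes in WT ran from -2.68 ± 0.18 for Dppa4 to -4.97 ± 0.30 for Dppa2. From day 3 to day 5 the average of the depleted lines was called lower for all 5 (1.89% of all genes), and KO2 alone for 4, not for Fbxo15. Dppa5a stood at -4.02 ± 0.17, against -2.53 ± 0.20 in WT, on a scale that understates falls to levels near 0. Its summed CPM went from 7.58 to 0.484 in WT, from 19.5 to 0.8 in KO2 and from 63.1 to 1.75 in KO3.

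As a share of the line's own 2iL mean, Dppa5a stood at day 3 at 1.69% in WT, 6.39% in KO2 and 15.03% in KO3. Fbxo15 stood at 0.698%, 3.41% and 8.68%. Dppa4 stood at 44.9%, 38.4% and 109%, so that KO3 still held its 2iL level. Dppa2 stood at 4.47%, 6.24% and 19.7%, on a WT base of which single 2iL libraries were 32.1% to 176% of the mean. By the test of the difference between the changes from 2iL, 2 of 5 members were called higher at day 3 (8.41% of all genes): Dppa5a (2.43 ± 0.27, adjusted p = 5.72e-09) and Fbxo15 (2.72 ± 0.37, adjusted p = 1.4e-06). Dppa4 did not pass (0.51 ± 0.24, adjusted p = 0.153), nor did Dppa3 (1.10 ± 0.56, adjusted p = 0.187). For Dppa4 the lines differed: KO2 stood at -0.27 ± 0.27 (adjusted p = 0.569), and KO3 alone was called (1.29 ± 0.30, adjusted p = 0.00229). Dppa2 did not pass either (0.01 ± 0.41, adjusted p = 0.996), since its average difference from WT was 2.28 both in 2iL and at day 3. That average joins opposite signs, -0.86 ± 0.46 in KO2 (adjusted p = 0.224) and 0.87 ± 0.50 in KO3 (adjusted p = 0.274). The Dppa3 value moved with the setting: it was called by DESeq2 (3.81, adjusted p = 0.00561), with a pseudocount of 0.5 CPM (1.77, adjusted p = 0.0435), without WT 2iL library 3 (1.56, adjusted p = 0.0496) and with the added term for the 2iL libraries numbered 3 (1.10, adjusted p = 0.0417), and was -0.17 with a pseudocount of 5 CPM (adjusted p = 0.844).

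By day 5 the same test called Dppa5a higher (0.94 ± 0.27, adjusted p = 0.0104; 1 of 5, against 7.53% of all genes) and Dppa2 lower (-1.15 ± 0.41, adjusted p = 0.0408; 1 of 5, against 10.4%). The Dppa5a call used 9 WT reads at day 5 and was lost with edgeR (1.64, adjusted p = 0.058) and a pseudocount of 5 CPM (0.51, adjusted p = 0.0576). KO2 carried the Dppa2 call (-1.84 ± 0.46, adjusted p = 0.00408), and KO3 alone was not called (-0.46 ± 0.50, adjusted p = 0.562). The Dppa2 value depends on how low levels are scaled, since day 5 levels were near the limit in WT. It was 0.48 with edgeR (adjusted p = 0.793) and 0.60 with DESeq2 (adjusted p = 0.661), of the opposite sign. The Dppa2 call was lost in most of the fits that left out a library, among them that without WT 2iL library 1 (-0.56, adjusted p = 0.319).

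KO3 and KO2 were compared with each other because each is 1 line. In 2iL none of the 5 members was called in either direction by limma (7.24% of all genes were), nor by edgeR or DESeq2, with 1 of 5, Dppa4, at an unadjusted p under 0.05 (-0.55 ± 0.20, adjusted p = 0.0858). At day 1, 2 of 5 were called higher in KO3 (8.19% of all genes), Dppa5a (0.62 ± 0.20, adjusted p = 0.0197) and Fbxo15 (0.75 ± 0.27, adjusted p = 0.0404). Without KO2 library 3, or KO3 library 2 or 4, neither was called, and without KO2 library 1, KO2 library 4 or KO3 library 3, 1 of them was.

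At day 3, 3 of 5 were called higher in KO3 (5.58% of all genes): Dppa4 (1.01 ± 0.22, adjusted p = 0.00176), Dppa5a (1.66 ± 0.24, adjusted p = 9.89e-06) and Fbxo15 (1.44 ± 0.33, adjusted p = 0.00389). For Dppa5a and Fbxo15, both KO3 libraries exceeded all 4 KO2 libraries, as they did for Dppa4 and for Dppa2, which was not called (1.06 ± 0.37, adjusted p = 0.0572). The Fbxo15 call was lost without KO3 library 2 (1.32, adjusted p = 0.0839). At day 5, 1 of 5 was called (9.02% of all genes), Dppa4 (0.77 ± 0.22, adjusted p = 0.011), and not without KO3 library 1 (0.65, adjusted p = 0.164). Dppa3 was the exception: KO3 was not above KO2 at day 1 (-0.53 ± 0.41, adjusted p = 0.379) or day 3 (-0.19 ± 0.50, adjusted p = 0.869).

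Markers of other cell types also differed between the lines at day 3, when 10.8% of all genes were called higher and 6.49% lower. Primordial germ cell markers summed to 60.5 to 67.7 CPM in WT, 163 to 187 CPM in KO2 and 216 to 232 CPM in KO3, with 5 of 11 called higher in the depleted lines and none lower. Nanos3 was at 0 in WT, and Prdm14 was at 0 in KO2 and KO3. Primitive endoderm markers summed to 112 to 126 CPM, 175 to 211 CPM and 292 to 307 CPM (5 of 7 measured called higher, Sox7 at 0 in KO2). Trophoblast markers summed to 28.6 to 33.2 CPM, 41.5 to 81.2 CPM and 92.9 to 101 CPM (6 of 7 called higher, Cdx2 and Elf5 at 0 in WT). Fibroblast and feeder markers were highest in KO2, at 77.8 to 126 CPM against 32.1 to 38.5 CPM in WT and 40.4 to 46.1 CPM in KO3 (3 of 7 called higher and 1 lower, Postn at 0 in WT). Naive markers (6 of 10 called higher, none at 0) summed to 150.0 to 187 CPM in WT, 98.9 to 156 CPM in KO2 and 170.1 to 180.3 CPM in KO3. WT overlapped each depleted line, and KO2 lay below KO3. Several of the called markers were near 0 in WT at day 3, such as Plac1 at 0.145 CPM, Sox17 at 0.0507 CPM and Gata6 at 0.235 CPM. Genes at such levels can hardly be called lower and may pass the filter mainly through the depleted lines. The marker counts therefore cannot be weighed against the shares of all genes. Whether the marker transcripts come from separate cells, and the part of any such cells in the members' day 3 levels, was not tested.

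Ordered by the mean of log2(CPM + 1), many of the 12 groups overlapped their neighbours in rank. Dppa2 ranged from 70.2 CPM in KO2 in 2iL to 0.272 CPM in WT at day 5, and 8 of 11 neighbouring pairs overlapped. The gaps followed KO2 in 2iL, KO2 at day 1 and KO3 at day 3. For Dppa3 9 of 11 pairs overlapped, with gaps below KO3 at day 1 and below KO3 at day 3. Dppa4 (6 of 11 overlapping) had its 3 day 1 groups at the top, from 245 to 295 CPM. Dppa5a was the most finely ordered, with 3 of 11 overlapping, and its groups followed time throughout, from 455 CPM in WT in 2iL to 0.5 CPM in WT at day 5. For Fbxo15 7 of 11 overlapped, the 2iL groups (501 to 543 CPM) were on top, and WT at day 3 (3.79 CPM) was apart at the bottom.

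Patterns most like each member were sought by Pearson's r over the 12 group means of log2(CPM + 1), among 10249 genes reaching 10 CPM in some group. These means share libraries and a common fall out of 2iL, so r is a description only. Dppa2 was closest to the melanocyte antigen gene Mlana (r = 0.974), the methylation cofactor gene Dnmt3l (0.973) and the sugar phosphate exchanger gene Slc37a1 (0.973). Like Dppa2, Dnmt3l was higher at day 1 than in 2iL in WT (133 against 37.1 CPM) and was nearly gone at day 3 in WT (0.423 CPM) but not in KO2 (13.3 CPM) or KO3 (25.1 CPM). Dppa4 was closest to the homeobox gene Rhox5 (0.969), Mitd1 (0.957) and D630023F18Rik (0.954). Rhox5 also peaked at day 1 in WT, at 746 CPM.

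Dppa3 was closest to the naive long noncoding RNA Lncenc1 (0.972), the germ cell proteasome subunit gene Psma8 (0.971) and the sulfotransferase gene Sult6b1 (0.971). Dppa5a was closest to Stk31 (0.977), a germ cell kinase gene, Triml2 (0.975) and Psma8 (0.968). Fbxo15 was closest to Ostf1 (0.986), the transporter gene Abcc5 (0.985) and the naive marker Zfp42, also called Rex1 (0.982). Among the members, r ran from 0.62 between Dppa4 and Fbxo15 to 0.93 between Dppa3 and Dppa5a, with 0.91 between the neighbours Dppa2 and Dppa4.

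Genes next to the members on the chromosome were read for comparison. On the far side of Dppa2, Morc1, a germ cell gene of transposon silencing, lay 111514 bp away and was higher in the depleted lines at day 3 (1.59 ± 0.20, adjusted p = 1.68e-08), at 0.831 CPM in WT, 3.28 CPM in KO2 and 5.12 CPM in KO3. It did not share the 2iL difference of Dppa2 (-0.34 ± 0.21, adjusted p = 0.260). On the near side of Dppa4, Nectin3 lay 1785208 bp away and was not called at any time. Gdf3, a TGF-beta family ligand 16323 bp before Dppa3, was higher in the depleted lines at day 3 (2.42 ± 0.20, adjusted p = 1.07e-12). It stood at 3.04 CPM in WT, 15.6 CPM in KO2 and 24.9 CPM in KO3, below its day 1 levels of 81.9, 58.9 and 118 CPM. Its day 1 difference was 0.03 ± 0.19 (adjusted p = 0.931), unlike that of Dppa3. Ooep, a maternal KH-domain gene 7932 bp after Dppa5a, was lower in the depleted lines in 2iL (-0.90 ± 0.21, adjusted p = 0.00138) and stood at 0.20 ± 0.20 at day 3 (adjusted p = 0.514).

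Genes farther along chromosome 6 were shifted in KO3. The 100 nearest genes of Dppa3 with a mean of at least 10 CPM had a median difference of KO3 from WT of 0.19 in 2iL, 0.28 at day 1, 0.39 at day 3 and 0.27 at day 5, and of 0.00, -0.02, 0.14 and 0.08 in KO2. With each library centred on these neighbours, the 2iL difference of Dppa3 was 0.97 (adjusted p = 0.0864, no longer called), and the day 1 and day 3 differences remained called. For the other members the median of the neighbours lay between -0.15 and 0.11 in each depleted line, and for Fbxo15 only 53 such genes were available.

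**Figure D4:**
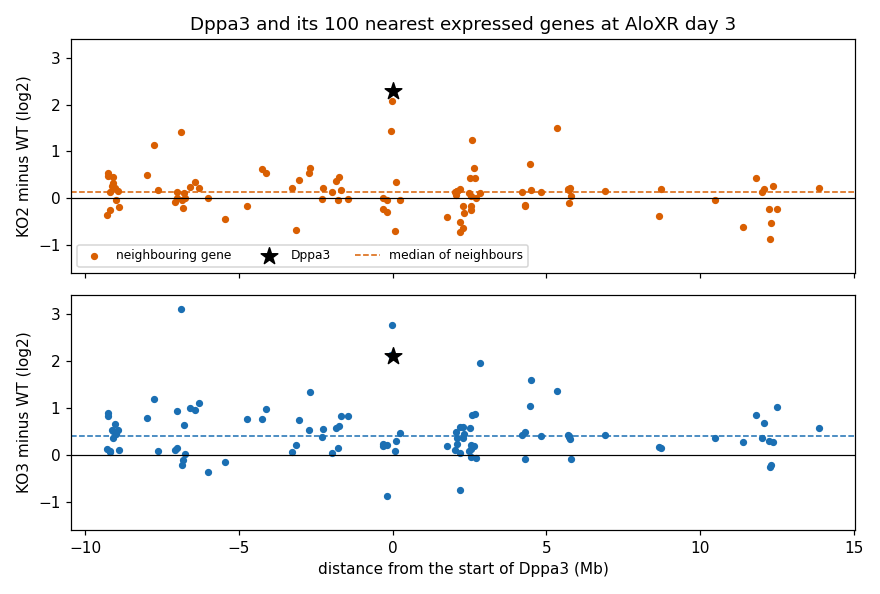
Difference from WT at AloXR day 3 (log2, vertical axis) of Dppa3 (star) and its 100 nearest expressed genes (points), by distance from the start of Dppa3 in megabases, for KO2 above and KO3 below. Dashed lines mark the neighbours' medians, 0.14 in KO2 and 0.39 in KO3, and Dppa3 lies above them at 2.29 and 2.10.

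The other candidates of the reprogramming screen were counted against all genes. Of 18 measured, 2 were called higher and 6 lower in the depleted lines in 2iL (8.11% and 7.6% of all genes), with a list median of -0.01. Tcl1, an Akt coactivator (-3.10 ± 0.26), the KH-domain gene Khdc3 (-2.87 ± 0.29) and Klf4 (-2.68 ± 0.24) differed most from WT. At day 1 the counts were 2 and 2 (6.31% and 5.5% of all genes), with Eras (-1.69), Fthl17a (1.46) and Nanog (0.80) differing most. Both at day 3 (10.8% and 6.49% of all genes) and at day 5 (8.89% and 11.7%) they were 6 and 2. At day 3 Dnmt3l (3.72 ± 0.33), Gdf3 (2.42) and Fthl17a (2.14) were furthest above WT and the median was 0.15. At day 5 Myc (1.93), Fthl17a (1.37) and Nanog (-1.36) differed most. The day 5 average of Fthl17a rested mainly on KO3, at 4.56 CPM against 0.23 CPM in KO2 and 0.0 CPM in WT.

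Of 16 genes of the 2-cell-like programme, which Dppa2 and Dppa4 act upstream of, 9 passed the filter. The depleted lines were called higher for 8 of 9 in 2iL (8.11% of all genes), 8 of 9 at day 1 (6.31%), 6 of 9 at day 3 (10.8%) and 0 of 9 at day 5 (8.89%; by limma also 0 at an unadjusted p under 0.05), and none was lower. List medians were 1.14, 1.03, 0.67 and 0.07. The genes named here averaged at most 0.152 CPM in WT at the times given. Genes at such levels pass the filter mainly through the depleted lines and can hardly be called lower. The filter thus partly fixed these counts, which cannot be weighed against the shares of all genes. In 2iL Usp17la averaged 0.0758 CPM in WT, 10.4 CPM in KO2 and 3.00 CPM in KO3 (2.50 ± 0.30, adjusted p = 9.54e-09), followed by Usp17lc (1.72) and Zscan4c (1.43). At day 1 Usp17lc (1.77), Zscan4a (1.44) and Zfp352 (1.35) were furthest above WT, where Dppa2 and Dppa4 were not called, and at day 3 Usp17lc (1.25), Usp17la (1.24) and Tcstv3 (0.88). Several are near-identical family members, between which reads are hard to assign.

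DNA methylation enzymes and cofactors include Uhrf1, to which Dppa3 binds. Uhrf1 stood in 2iL at 229 CPM in WT, 162 CPM in KO2 and 158 CPM in KO3 (-0.53 ± 0.11, under 1.5-fold), and at day 3 at 98.6, 91.2 and 102 CPM. Against the shares of all genes given for the candidates, 2 of the 12 genes were called higher and 1 lower in 2iL: Dnmt3l (1.63 ± 0.36), the methyltransferase gene Dnmt3a (1.00 ± 0.10) and the demethylation enzyme gene Tet3 (-0.87 ± 0.19). At day 1, Dnmt3a (-1.47 ± 0.09) and Dnmt3b (-0.66 ± 0.23) were called lower and none higher. At day 3 Dnmt3l was called higher and Dnmt3a lower (-0.90 ± 0.10), and at day 5 3 were higher, Dnmt3l (1.06), the imprint factor gene Zfp57 (0.75) and Tet1 (0.64), and none lower. List medians ran from -0.16 at day 1 to 0.25 at day 5.

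Over the 4 times, 8.11%, 6.31%, 10.8% and 8.89% of all genes were called higher and 7.6%, 5.5%, 6.49% and 11.7% lower. At these shares the short lists that follow would hold few calls. Of 9 measured SCF genes, which include the ligase partners of Fbxo15, none was called higher by limma at any time (2, 0, 0 and 1 at an unadjusted p under 0.05). Nedd8, the ubiquitin-like activator of cullins, was called lower in 2iL (-0.85 ± 0.12), at day 1 (-0.83 ± 0.10) and at day 3 (-0.68 ± 0.11). List medians ran from -0.06 to -0.02. Of 6 measured genes of the KH-domain family and the maternal subcortical complex, which include the relatives of Dppa5a, none was called higher (1, 0, 0 and 0 at an unadjusted p under 0.05). Khdc3 and Ooep were called lower in 2iL and Ooep at day 1 (-0.75 ± 0.19), with medians of -0.46, -0.14, 0.11 and -0.02 over the 4 times.

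Germline genes sensitive to DNA methylation, 20 measured, were called higher and lower at 11 and 2 in 2iL (8.11% and 7.6% of all genes), 3 and 4 at day 1 (6.31% and 5.5%), 11 and 2 at day 3 (10.8% and 6.49%), and 8 and 2 at day 5 (8.89% and 11.7%). Their median was 0.97 in 2iL, 0.21 at day 1, 0.95 at day 3 and 0.24 at day 5. In 2iL the piRNA factor gene Mael (2.25 ± 0.28) and the synapsis gene Sycp1 (1.66 ± 0.26) were higher than in WT and the RNA-binding gene Dazl lower (-1.53 ± 0.26). The Sycp1 average rested mainly on KO2, at 20.4 CPM against 3.1 CPM in KO3 and 1.97 CPM in WT. At day 1 Hormad1 (-1.72) and Sycp3 (-1.68) were lower and Tex19.1 was higher (1.32). At day 3 Taf7l (2.80 ± 0.33), Rpl10l (2.69 ± 0.21) and Tex19.1 (2.67 ± 0.24) were furthest above WT, and at day 5 Sycp3 was lower (-2.92) while Taf7l (1.61) and Tex19.1 (1.53) were higher. Dnmt3l, Gdf3, Nanog, Dazl, Klf4, Zfp42, Sox2, Pou5f1, Khdc3, Ooep, Prdm14 and Ddx4 stand in more than 1 list or are named above as neighbours. Tfap2c is in both the germ cell and the trophoblast markers. Counts of lists that share genes are not independent.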

How the data were processed

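The authors deposited CPM values of QuantSeq 3′ mRNA libraries, which read tags near the 3′ end of polyadenylated transcripts. Per the submitters' processing notes, STAR 2.7.6a, Subread and featureCounts 2.0.1 were used with GRCm38. Every column sums to 1000000 CPM, and 100.0% of 766190 values above 0 were whole reads within a tolerance of 0.01. Gene names and positions came from GENCODE M21 (55227 of 55487 identifiers matched).

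Values were tested as log2(CPM + 1) for 16967 genes with limma 3.58.1 in R 4.3.3, as 12 group means over 41 libraries (29 residual degrees of freedom) with trend and robust variances. Averages of both depleted lines were called only if both changed in 1 direction. Of 53 pairs of replicate libraries, none agreed within sampling noise. Copies were searched with blastn 2.17.0+ (at least 250 aligned bases and 85% identity). Alternatives included edgeR 4.0.16 and DESeq2 1.42.0 on the recovered reads, and a term for the 2iL libraries numbered 3, added after seeing the data. The limma step was tested on simulated data.

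Members and lists were chosen with earlier results of these data known. Named genes are the members, each list's 3 called genes with the largest change, 3 most similar genes and nearest neighbours per member, and 5 reference genes; Uhrf1 was added after its values were seen.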

Additional observations from a re-analysis of the deposited data

Results flagged for a closer look

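Among 35 member and group combinations with 4 libraries, of which chance would single out about 1 in 20, 2 held a library far from the other three. For Dppa4, KO2 library 4 at day 1 held 321.7 CPM, above the other KO2 libraries at 214 to 225 CPM. For Fbxo15, WT library 3 at day 3 held 6.40 CPM, against 2.84 to 3.08 CPM in the others.

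Changes from 2iL that differed between the depleted lines and WT by limma were those of Dppa2 at day 1 (-2.59) and day 5 (-1.15), of Dppa5a at day 3 (2.43) and day 5 (0.94), and of Fbxo15 at day 3 (2.72). Differences between the 2 depleted lines, KO3 minus KO2, were called at day 1 for Dppa5a (0.62) and Fbxo15 (0.75), at day 3 for Dppa4 (1.01), Dppa5a (1.66) and Fbxo15 (1.44), and at day 5 for Dppa4 (0.77).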

How the results depend on the processing

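The 5 calls at day 3 kept their direction and call in both lines averaged under every alternative run, including each library left out in turn, and so did Dppa2 in 2iL and Dppa3 at day 1, with each line alone giving the same calls apart from Dppa4 at day 3 in KO2 (0.50). Depth limits Dppa2, Dppa3 and Dppa5a of WT at days 3 and 5, where a few reads decide a value.

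Counts of members called moved as follows, and the cause was not tested. For the depleted lines against WT in 2iL the count of 2 became 1 with a pseudocount of 0.5 CPM, without a filter, with DESeq2, with only the groups compared, position-centred and with KO3 alone. At day 1 the count of 1 became 2 with KO2 alone and 2 with KO3 alone, and at day 5 the count of 3 became 1 with a pseudocount of 5 CPM and 0 with KO2 alone, and 2 with quantile normalization, edgeR, DESeq2 and position-centred, each without Dppa5a. For KO3 against KO2 the count went from 0 to 1 in 2iL without the library numbered 3 of each line, from 2 to 1 at day 1 (pseudocount of 0.5 CPM, no filter, quantile normalization, edgeR, DESeq2), and from 1 to 0 at day 5 with only the groups compared; at day 3 Dppa2 was added with only the groups compared and position-centred. In the depleted lines edgeR and DESeq2 added Dppa2 from 2iL to day 1, and from day 3 to day 5 Dppa3 was lost with a pseudocount of 5 CPM and Fbxo15 with only the groups compared. Dppa3 was added to the difference of changes to day 3 with a pseudocount of 0.5 CPM and with DESeq2. For the difference of changes to day 5 the count of 2 became 0 with edgeR and 1 with pseudocounts of 0.5 and 5 CPM, no filter, DESeq2 and only the groups compared.

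The Dppa2 to Dppa4 difference at day 3 was 0.18 (adjusted exact p = 0.291) and at day 5 turned to -0.19 (adjusted exact p = 0.400) with a pseudocount of 5 CPM. In KO2 alone it was 1.84 in 2iL and 1.25 at day 3, in KO3 alone 1.71 and 1.30, and without the 2iL library numbered 3 1.99, none passing the threshold with so few libraries.

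Uncalled values that changed sign were Fbxo15 in 2iL (0.02, quantile normalization), Dppa4 and Dppa5a at day 1 (0.09 and 0.03, KO3 alone), and Dppa3 at day 5 (-0.97 edgeR, -0.53 DESeq2, -0.19 position-centred, -0.26 KO3 alone). The difference of changes to day 3 turned for Dppa2 (-0.82 pseudocount of 5 CPM, -0.21 quantile, -0.01 TMM, -0.19 without the libraries numbered 3) and Dppa3 (-0.17, pseudocount of 5 CPM). The called Dppa2 difference of changes to day 5 turned to 0.48 with edgeR and 0.60 with DESeq2.

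Leaving out 1 library in turn (a lone KO3 library is then assumed to vary like the other groups), counts ranged from 1 to 2 (depleted lines against WT in 2iL), 0 to 2 (KO3 against KO2 in 2iL and at day 1), 0 to 1 (day 5) 1 to 2 (difference of changes to day 5), 2 to 4 (KO3 against KO2 at day 3), 2 to 3 (depleted lines against WT at day 5, difference of changes to day 3) and 4 to 5 (depleted lines, 2iL to day 1 and day 3 to day 5), and the Dppa2 to Dppa4 difference in 2iL from 1.22 to 2.24. Values that turned ranged from -0.17 to 0.01 (Fbxo15 in 2iL), -0.07 to 0.18 (Dppa3 at day 5), -0.11 to 0.18 (Dppa3, WT day 3 to day 5), -0.51 to 0.59 and -0.10 to 0.20 (difference of changes, Dppa2 to day 3 and Dppa5a to day 1), and for KO3 against KO2 -0.27 to 0.82 and -0.57 to 0.21 (Dppa3 in 2iL and at day 3), -0.04 to 0.21 and -0.03 to 0.51 (Fbxo15 in 2iL and at day 5).

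Over all genes, edgeR called 1644 higher and 1177 lower at day 3 (1830 and 1101 by limma), and a pseudocount of 5 CPM 771 and 567. For WT from day 3 to day 5 the split was 1690 higher and 674 lower, 1103 and 1037 after quantile normalization, and for KO3 against KO2 at day 3 946 and 358, then 705 and 559. No paired analysis was possible because the labels carry no replicate numbers that link libraries across groups. A term for the 2iL libraries numbered 3, added after seeing the data, kept every call of the comparisons that use 2iL and added Dppa3 to the difference of changes to day 3 (1.10, adjusted p = 0.0417) and to day 5 (-1.08, adjusted p = 0.0394).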
